A study of Mus musculus with 6 samples.

Results

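The genes described are 34 cell cycle and mitosis genes of the mouse, chosen by name for their roles in copying DNA and in dividing the cell. A gene was measured where the array's annotation gave its symbol as the only gene of at least 1 feature, and 33 of the 34 met this among 19087 genes in all. Ccnb1 was not analysed here. RNA of cultured mouse sympathetic neurons was hybridised on 6 Agilent arrays with 2 dyes. The +IFN group, on 3 arrays, held neurons given 500 U per ml interferon-gamma for 24 h, and the Control group, on the other 3, held neurons without it at the same 24 h. All 6 arrays carried the same kind of reference in the Cy3 channel, sympathetic cervical ganglia taken on postnatal day 5 without treatment, whose RNA is called the ganglion reference here. The comparison asks which genes the neurons use differently after a day of interferon-gamma.

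Cells that divide build a set of proteins in order. The MCM helicase, PCNA and the enzymes that make DNA precursors are produced ahead of S phase largely under E2F factors, while cyclin B, CDK1, the Aurora and Polo kinases and the kinetochore proteins are produced later, through promoter elements called CHR and CCAAT boxes that the DREAM, MuvB and NF-Y complexes bind. In cells that have left the cycle, such as neurons, RB family proteins and DREAM hold both sets down. Sympathetic neurons are postmitotic after birth, whereas satellite glia, Schwann cells, fibroblasts and vascular cells of the young ganglion can still divide. Interferon-gamma, a cytokine of T cells and natural killer cells, slows division in many cell types.

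The value per array is the deposited log ratio, read as log2 of neuron RNA over ganglion reference, averaged over a gene's features. A value of -1 thus means that the culture held 2-fold less of a transcript than the ganglion, at equal RNA. It gives no level, so the genes cannot be ordered by abundance, and a gene below background in both channels would also lie near 0. The scale was inferred from the values, and the direction rests on the labelled dyes and the usual red over green order. No dyes were swapped, so a dye effect stays in each ratio but cancels in the difference between the groups. The labels do not say whether the replicates are separate cultures, so each p-value reflects only how far these arrays spread, which may be technical. The number of arrays limits the precision.

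Promoters are shown here as a description of the listed genes, Ccnb1 included. Whether their letters relate to the array values was not tested. RefSeq promoter windows of build GRCm38.p6, from 250 bases before to 50 bases after the start, were found for 29 of the 34 genes, and not for Mcm4, Ccna2, Aurkb, Pbk and Kif20a. Letters were searched on both strands. The CHR letters TTTGAA or TTTAAA were in 20 of the 29 windows (69.0%), against 26.9% of the 15306 measured genes with a window. The CCAAT letters were in 25 windows (86.2%), against 42.3%. Both together were in 19 windows (65.5%), against 11%. One of the E2F letters GGCGGGAA or TTTGGCGC or TTTCGCGC or TTTCCCGC, which can overlap each other, was in 6 windows (20.7%), against 5.63%.

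The matches divided by role. E2F letters were in 5 of 9 windows of the replication genes, in that of Cdk1, and in none of the 16 windows of the other mitotic roles. CHR letters were in 3 of the 9 replication windows and in 17 of the other 20. A match is a description of letters, not a binding site or a cause, and a window with none says only that these letters are not in it. From each role, the gene with the most matches in the 200 bases before its start is shown, so the choice was made after the matches were seen. Capitals mark CHR, CCAAT and E2F letters on either strand, and each run is read 5′ to 3′ on the gene's strand.
Mcm6 promoter, chr1:128359706-128359905, minus strand: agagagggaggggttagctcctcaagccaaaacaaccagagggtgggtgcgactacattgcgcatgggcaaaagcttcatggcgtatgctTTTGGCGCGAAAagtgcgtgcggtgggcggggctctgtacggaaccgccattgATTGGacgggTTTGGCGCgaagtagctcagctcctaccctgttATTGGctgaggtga
Cdk1 promoter, chr10:69352913-69353112, minus strand: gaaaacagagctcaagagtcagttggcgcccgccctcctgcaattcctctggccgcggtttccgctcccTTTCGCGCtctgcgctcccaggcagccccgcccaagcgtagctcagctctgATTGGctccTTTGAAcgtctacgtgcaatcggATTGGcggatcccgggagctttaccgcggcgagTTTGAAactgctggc
Plk1 promoter, chr7:122159235-122159434, plus strand: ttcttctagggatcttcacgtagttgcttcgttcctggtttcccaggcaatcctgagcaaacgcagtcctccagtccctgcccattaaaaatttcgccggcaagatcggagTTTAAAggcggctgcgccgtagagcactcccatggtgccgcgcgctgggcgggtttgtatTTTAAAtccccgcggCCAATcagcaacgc
Cenpf promoter, chr1:189688087-189688286, minus strand: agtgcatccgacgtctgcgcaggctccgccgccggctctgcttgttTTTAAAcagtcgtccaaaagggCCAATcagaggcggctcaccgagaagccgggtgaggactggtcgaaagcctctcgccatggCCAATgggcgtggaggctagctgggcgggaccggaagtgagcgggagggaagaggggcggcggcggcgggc
Top2a promoter, chr11:99024190-99024389, minus strand: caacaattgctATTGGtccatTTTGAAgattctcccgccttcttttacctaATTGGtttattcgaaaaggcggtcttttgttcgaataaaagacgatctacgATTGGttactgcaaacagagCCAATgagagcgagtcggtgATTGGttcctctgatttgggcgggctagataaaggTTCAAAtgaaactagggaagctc
Mcm6 held 3 E2F and 2 CCAAT matches and no CHR match. Cdk1 held 2 CHR, 2 CCAAT and 1 E2F matches. The promoters of Plk1, Cenpf and Top2a held CHR and CCAAT matches and no E2F match.

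The untreated neurons had far less of nearly all 33 transcripts than the ganglion did. The mean over the Control arrays was below -1 for 29 of the 33 genes, and its median over the genes was -1.97, against -0.03 over all 19087 genes. All 3 Control arrays were below -1 for 28 of the 33 genes (84.8%), against 2.12% of all genes. By array, the median gene stood at 26.4%, 21.6% and 28.2% of the ganglion reference on Control arrays 1, 2 and 3. The reference has no spread of its own in these data, so this level carries no test. In RNA from a whole culture or ganglion, fewer cells of a dividing type and less RNA per cell cannot be told apart.

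With interferon-gamma the 3 arrays disagreed. The median gene stood at 72.6% of the ganglion reference on +IFN array 1, at 24.4% on +IFN array 2 and at 69.7% on +IFN array 3, against 21.6% to 28.2% on the Control arrays. As log2 ratios these medians were -0.46, -2.03 and -0.52 on +IFN arrays 1, 2 and 3, against -1.92, -2.21 and -1.83 on Control arrays 1, 2 and 3. On +IFN arrays 1 and 3 the genes thus lay nearer to the ganglion, and on +IFN array 2 they lay where the Control arrays did. Still, 30, 33 and 31 of the 33 genes were below 0 on +IFN arrays 1, 2 and 3, as were all 33 on each Control array. The number of genes below -1 was 3, 28 and 3 on +IFN arrays 1, 2 and 3, against 32, 29 and 29 on the Control arrays.

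**Figure D1:**
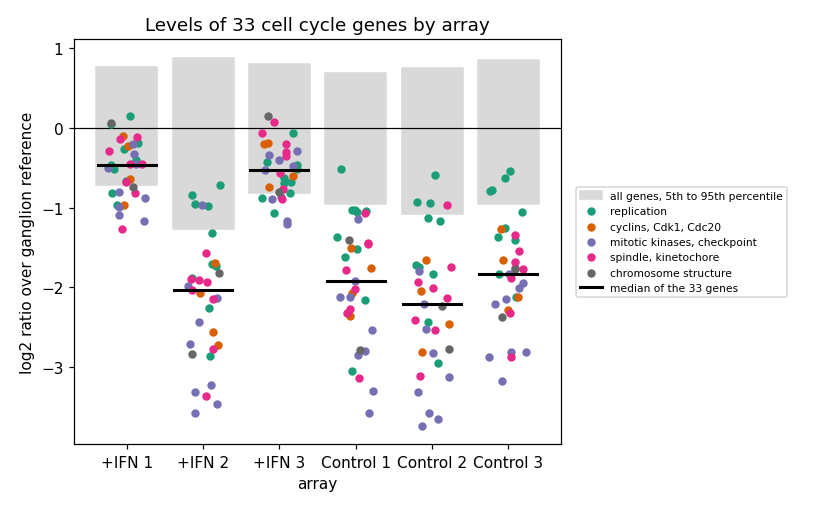
Each point is 1 of the 33 cell cycle genes, coloured by role and placed by its log2 ratio over the ganglion reference (vertical axis) on each of the 6 arrays (horizontal axis), with black lines for the medians and grey bars for the 5th to 95th percentile of all genes. The medians are -0.46, -2.03 and -0.52 on the +IFN arrays and between -2.21 and -1.83 on the Control arrays.

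Relative to the Control mean, +IFN array 1 was at least 2-fold higher for 27 of the 33 genes (81.8%), against 4.3% of all genes. +IFN array 3 was at least 2-fold higher for 25 genes (75.8%), against 3.74% of all genes. +IFN array 2 was at least 2-fold higher for Melk alone (3.03%), against 2.36% of all genes. No gene of the 33 was at least 2-fold lower on any +IFN array. Of all 19087 genes, only 299, 422 and 264 were so on +IFN arrays 1, 2 and 3. The median change was 1.52, -0.19 and 1.62 log2 on +IFN arrays 1, 2 and 3, while that of all genes lay between -0.01 and 0.02. Under quantile normalization between arrays the small change on +IFN array 2 turned sign, to 0.11, with 1.19 and 1.28 on +IFN arrays 1 and 3.

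+IFN array 1 was above every Control array for 32 of the 33 genes, with Rrm1 the exception, against 5979 of all 19087 genes. +IFN array 3 was above every Control array for 32, with Mcm6 the exception, against 5502 of all genes. +IFN array 2 was above every Control array for Melk, within their range for 19 genes and below all of them for 13. Over all genes, 4494 lay above, 9651 within and 4942 below on that array. All 3 +IFN arrays therefore lay above all 3 Control arrays for 1 gene, Melk (3.03%), against 8.08% of all genes.

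None of the 33 genes passed the test between the groups. In limma's fit over all 19087 genes, 0 of 33 had a Benjamini-Hochberg adjusted p under 0.05 in either direction, against 213 genes (1.12%) higher in +IFN over all genes. At an unadjusted p under 0.05, 2 were higher in +IFN, Melk and Prc1 (6.06%), against 5.27% of all genes. At the same threshold 0 were lower, against 512 of all 19087 genes. The median difference was 0.99 log2, against 0.01 over all genes. The SD over the 3 +IFN arrays had a median of 0.97 over the 33 genes, and that over the 3 Control arrays one of 0.21, while over all genes the medians were 0.19 and 0.19. The +IFN arrays had the larger SD for 32 of the 33 genes, the exception being Melk.

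Each array was left out in turn, and 1 of the 6 omissions changed this count. Without +IFN array 2, 23 of the 33 genes (69.7%) were higher in +IFN at an adjusted p under 0.05 in limma's fit, against 480 of all genes (2.51%), and the median difference was 1.56 log2. Without any other array the count stayed at 0, and over the 14 alternatives that kept +IFN array 2 the adjusted p of the 33 genes lay between 0.176 and 0.998. The 10 genes that did not pass were Mcm2, Mcm4, Mcm6, Mcm7, Rrm1, Pcna, Tyms, Aurka, Melk and Kif11, of which 7 are replication genes. That fit compares 2 +IFN arrays with 3 Control arrays, and its folds are given beside the values of each gene. The array it omits is the +IFN array on which these same genes differed from the other +IFN arrays. Its adjusted p values thus depend on that omission, here and for each gene and role below. They describe +IFN arrays 1 and 3 and are no separate support for a change.

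**Figure D2:**
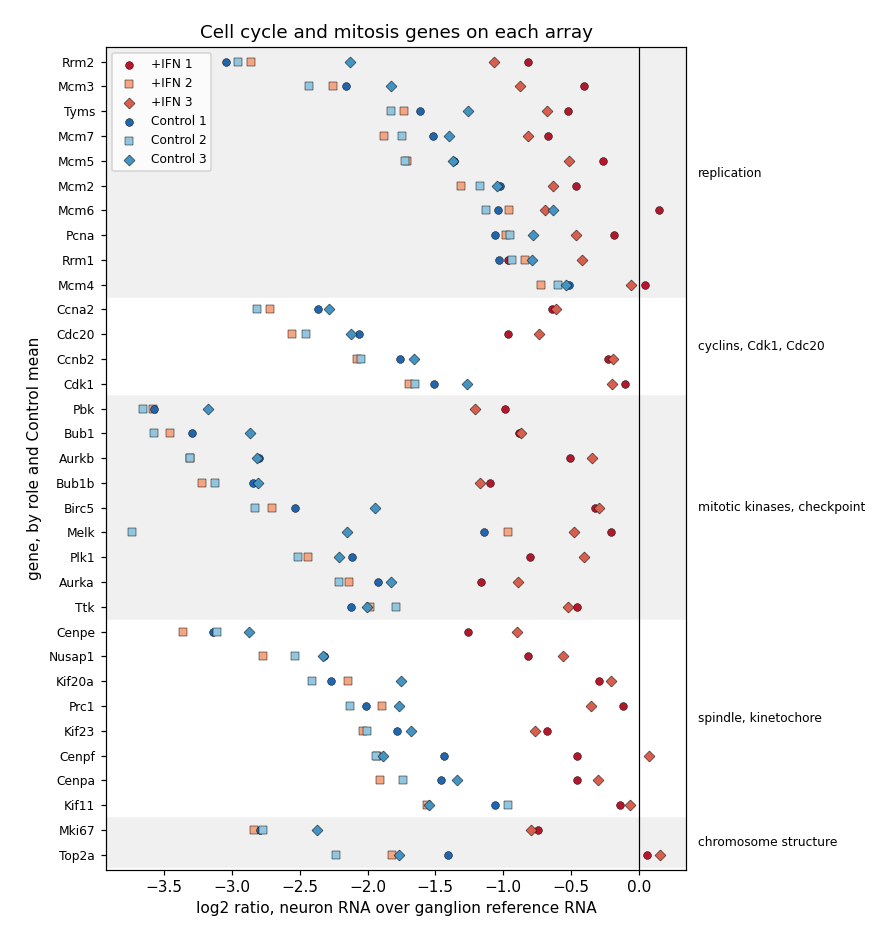
The log2 ratio over the ganglion reference (horizontal axis) is drawn for each of the 33 genes (vertical axis, by role and by Control mean), with 1 symbol per array, red for +IFN and blue for Control. +IFN arrays 1 and 3 lie to the right of all Control symbols for 32 genes each, and +IFN array 2 for Melk. Of all 19087 genes, 5979, 4494 and 5502 lay above all Control arrays on +IFN arrays 1, 2 and 3.

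The genes of DNA replication and nucleotide supply had the highest role median on each Control array, but not on +IFN arrays 1 and 3. Their role medians were -0.43, -1.51 and -0.66 on +IFN arrays 1, 2 and 3, against -1.21, -1.45 and -1.15 on the Control arrays, with a median difference of 0.43. Mcm2 to Mcm7 encode the 6 subunits of the helicase that opens DNA at origins. Mcm3, the lowest of them in untreated neurons, had ratios of -0.40, -2.26 and -0.87 on +IFN arrays 1, 2 and 3, against -2.16, -2.43 and -1.83 on Control arrays 1, 2 and 3. The arrays +IFN 1 and 3 were above all Control arrays, and +IFN 2 was within their range. Its difference was 0.96 ± 0.47 log2 (SE; 95% interval -0.17 to 2.09; adjusted p = 0.671), and without +IFN array 2 it was 2.83-fold (adjusted p = 0.0345).

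Mcm5 had -0.26, -1.71 and -0.51 on the +IFN arrays, against -1.36, -1.72 and -1.37 on the Control arrays. It was the only other MCM gene to pass without +IFN array 2, at 2.14-fold (adjusted p = 0.0382). Mcm7 had -0.67, -1.88 and -0.81 on the +IFN arrays, against -1.52, -1.75 and -1.40 on the Control arrays. Mcm2 had -0.46, -1.31 and -0.63 on the +IFN arrays, against -1.02, -1.17 and -1.05 on the Control arrays. For Mcm2 and Mcm7, +IFN array 2 was below all 3 Control arrays and the other +IFN arrays above them. Mcm4, averaged over a curated feature with a Control mean of -1.26 and another with 0.16, had 0.05, -0.72 and -0.06 on the +IFN arrays, against -0.52, -0.59 and -0.54 on the Control arrays. Mcm6 had 0.15, -0.96 and -0.69 on the +IFN arrays, against -1.04, -1.13 and -0.63 on the Control arrays. In Mcm6, +IFN array 1 alone stood above the Control range.

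Rrm1 and Rrm2 are the large and small subunits of ribonucleotide reductase, which makes deoxynucleotides. Rrm2 had -0.82, -2.86 and -1.07 on the +IFN arrays, against -3.04, -2.95 and -2.13 on the Control arrays, and its Control mean was 15.3% of the ganglion. It had the largest difference of the role, 1.13 ± 0.56 log2 (SE; 95% interval -0.23 to 2.48; adjusted p = 0.682), and was 3.40-fold higher without +IFN array 2 (adjusted p = 0.0470). Rrm1, averaged over its 2 features, had -0.97, -0.84 and -0.42 on the +IFN arrays, against -1.03, -0.93 and -0.79 on the Control arrays, with a difference of 0.17 ± 0.17 log2 (SE; 95% interval -0.24 to 0.59; adjusted p = 0.834). Its features disagreed. The one annotated to a curated RefSeq transcript had -0.89, -1.92 and -1.08 on the +IFN arrays, against -1.82, -1.88 and -1.58 on the Control arrays, so +IFN arrays 1 and 3 were above all Control arrays and +IFN array 2 below them, and its difference was 0.46 log2. The other feature, of another cDNA, had -1.04, 0.24 and 0.23 on the +IFN arrays, against -0.25, 0.01 and 0.00 on the Control arrays.

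Pcna encodes the sliding clamp of the replication fork. It had -0.18, -0.98 and -0.46 on the +IFN arrays, against -1.06, -0.95 and -0.78 on the Control arrays. Its 10 features agreed closely, with an SD between features of 0.02 to 0.13 over the 6 arrays, which measures the repeat spots and not the spread between samples. Tyms, which makes thymidylate, had -0.52, -1.73 and -0.68 on the +IFN arrays, against -1.62, -1.83 and -1.26 on the Control arrays. Neither passed without +IFN array 2 (adjusted p = 0.172 for Pcna and 0.0891 for Tyms).

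The cyclins, Cdk1 and Cdc20, which drive entry into and exit from mitosis, all showed the wider pattern. Their role medians were -0.43, -2.32 and -0.40 on +IFN arrays 1, 2 and 3, against -1.91, -2.25 and -1.89 on the Control arrays, with a median difference of 0.90, and 4 of 4 passed without +IFN array 2. Ccna2, the cyclin of S and G2 phase, had -0.64, -2.72 and -0.61 on the +IFN arrays, against -2.36, -2.82 and -2.28 on the Control arrays. The arrays +IFN 1 and 3 were over 1 log2 unit above the highest Control array, and +IFN 2 was within the Control range. Its difference was 1.17 ± 0.57 log2 (SE; 95% interval -0.22 to 2.55; adjusted p = 0.674), and 3.64-fold without +IFN array 2 (adjusted p = 0.00868).

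Ccnb2, a B-type cyclin of mitosis, had -0.23, -2.08 and -0.19 on the +IFN arrays, against -1.76, -2.05 and -1.65 on the Control arrays. Cdk1, the kinase these cyclins activate, had -0.10, -1.69 and -0.20 on the +IFN arrays, against -1.51, -1.65 and -1.27 on the Control arrays. Cdc20, which activates the anaphase-promoting complex, had -0.96, -2.56 and -0.74 on the +IFN arrays, against -2.07, -2.45 and -2.12 on the Control arrays. In all 3 genes +IFN array 2 was the lowest of the 6 arrays and +IFN arrays 1 and 3 the highest. Cdk1 averages 2 curated features with Control means of -2.24 and -0.72. At the first of these, +IFN array 2 had -2.255, within the Control range of -2.517 to -1.923. All 3 genes passed without +IFN array 2, at 3.06-fold for Ccnb2 (adjusted p = 0.00763), 2.51-fold for Cdk1 (0.0146) and 2.57-fold for Cdc20 (0.0178).

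The mitotic kinases, spindle checkpoint genes and chromosomal passenger genes had the lowest role median in untreated neurons and the largest median difference. Their role medians were -0.80, -2.71 and -0.52 on the +IFN arrays, against -2.54, -3.13 and -2.21 on the Control arrays, with a median difference of 1.33, and 7 of 9 passed without +IFN array 2. Aurkb, the kinase of the chromosomal passenger complex, had -0.51, -3.31 and -0.34 on the +IFN arrays, against -2.80, -3.31 and -2.81 on the Control arrays. The arrays +IFN 1 and 3 lay over 2 log2 units above every Control array while +IFN 2 matched the lowest. The mean was -1.38 ± 1.67 in +IFN and -2.97 ± 0.29 in Control (SD, n = 3 each), and the difference was 1.59 ± 0.77 log2 (SE; 95% interval -0.28 to 3.45; limma adjusted p = 0.671). Leaving out +IFN array 2 made it 5.85-fold (adjusted p = 0.00330), the largest such fold of the genes that passed.

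Birc5, or survivin, is the passenger subunit that carries Aurkb to centromeres, and it had -0.33, -2.71 and -0.29 on the +IFN arrays, against -2.54, -2.83 and -1.95 on the Control arrays. Aurka, the kinase of spindle poles, had -1.17, -2.14 and -0.89 on the +IFN arrays, against -1.92, -2.21 and -1.83 on the Control arrays. Birc5 and Aurka, like Aurkb, were higher on +IFN arrays 1 and 3 than on every Control array, with +IFN array 2 in the Control range. Without +IFN array 2 Birc5 was 4.37-fold higher (adjusted p = 0.0159) and Aurka 1.95-fold (adjusted p = 0.0617). Plk1, which acts from mitotic entry to cytokinesis, had -0.80, -2.44 and -0.40 on the +IFN arrays, against -2.12, -2.52 and -2.21 on the Control arrays, and was 3.20-fold higher without +IFN array 2 (adjusted p = 0.0124).

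The spindle checkpoint holds anaphase until chromosomes are attached. Bub1, a checkpoint kinase, had -0.88, -3.46 and -0.87 on the +IFN arrays, against -3.29, -3.57 and -2.87 on the Control arrays. Bub1b, or BubR1, had -1.10, -3.22 and -1.17 on the +IFN arrays, against -2.85, -3.13 and -2.81 on the Control arrays. Ttk, or Mps1, had -0.45, -1.98 and -0.52 on the +IFN arrays, against -2.12, -1.79 and -2.0 on the Control arrays. For each of the 3, +IFN arrays 1 and 3 were over 1 log2 unit above the highest Control array and +IFN array 2 was at or just below the Control level. Their differences were 1.51 ± 0.70, 1.10 ± 0.56 and 0.99 ± 0.41 log2 (SE; adjusted p = 0.659, 0.690 and 0.627). In the fit without +IFN array 2 the folds were 5.18 for Bub1 (adjusted p = 0.00598), 3.46 for Bub1b (0.00429) and 2.80 for Ttk (0.00788).

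Pbk, a kinase of mitotic cells, had the lowest Control mean of the 33 genes, 9.02% of the ganglion. It had -0.99, -3.58 and -1.21 on the +IFN arrays, against -3.58, -3.65 and -3.18 on the Control arrays. The difference was 1.55 ± 0.67 log2 (SE; 95% interval -0.07 to 3.16; adjusted p = 0.636), and 5.18-fold without +IFN array 2 (adjusted p = 0.00355). Melk, a kinase high in dividing progenitors, was the 1 gene whose groups did not overlap. It had -0.20, -0.97 and -0.48 on the +IFN arrays, against -1.14, -3.74 and -2.15 on the Control arrays, and the largest difference of the 33 over all features, 1.79 ± 0.63 log2 (SE; 95% interval 0.28 to 3.30; unadjusted p = 0.0267, limma adjusted p = 0.519).

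That separation was seen only in the average of its 2 features, and neither feature showed it alone. The Melk feature annotated to a curated RefSeq transcript had -0.86, -2.90 and -0.82 on the +IFN arrays, against -3.08, -3.21 and -2.80 on the Control arrays, which is the pattern of Bub1. The other Melk feature, of another cDNA, had 0.46, 0.97 and -0.15 on the +IFN arrays, against 0.80, -4.27 and -1.50 on the Control arrays. It was high on Control array 1 and very low on Control array 2, and with the curated feature alone the difference was 1.5 log2 (adjusted p = 0.532).

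The genes of the spindle, cytokinesis and kinetochore gave role medians of -0.45, -1.98 and -0.33 on the +IFN arrays, against -1.90, -2.07 and -1.76 on the Control arrays, with a median difference of 1.0. In the fit without +IFN array 2, 7 of 8 passed. Kif11 is the kinesin that pushes spindle poles apart, and it had -0.14, -1.56 and -0.07 on the +IFN arrays, against -1.06, -0.97 and -1.54 on the Control arrays. It had the highest Control mean of the role, 43.8% of the ganglion. Its 3 features had Control means of -2.41, -0.61 and -0.55. In their average +IFN array 2 lay below all Control arrays, but in each feature it lay within the Control range. Without +IFN array 2 Kif11 was 2.13-fold higher (adjusted p = 0.0663).

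Kif20a, a kinesin of cytokinesis, had -0.29, -2.14 and -0.20 on the +IFN arrays, against -2.27, -2.41 and -1.75 on the Control arrays. Kif23, the kinesin of the centralspindlin complex, had -0.68, -2.03 and -0.77 on the +IFN arrays, against -1.78, -2.01 and -1.68 on the Control arrays. Prc1, which bundles microtubules of the central spindle, had -0.12, -1.90 and -0.35 on the +IFN arrays, against -2.01, -2.13 and -1.77 on the Control arrays. The 3 genes of the central spindle had +IFN arrays 1 and 3 above all Control arrays, with +IFN array 2 inside the Control range for Kif20a and Prc1 and just below it for Kif23. Kif20a had the largest difference of the role over all features, 1.26 ± 0.53 log2 (SE; 95% interval -0.02 to 2.54; adjusted p = 0.628), but with curated features only Nusap1 exceeded it, at 1.61 for Nusap1 and 1.28 for Kif20a. Prc1 had 1.18 ± 0.46 log2 (SE; 95% interval 0.08 to 2.28; unadjusted p = 0.0390, adjusted p = 0.591). Without +IFN array 2 the folds were 3.72 for Kif20a (adjusted p = 0.0126), 2.14 for Kif23 (0.0225) and 3.33 for Prc1 (0.00691).

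Nusap1, a spindle microtubule protein, had -0.82, -2.77 and -0.56 on the +IFN arrays, against -2.32, -2.54 and -2.33 on the Control arrays. Cenpe, the kinetochore kinesin, had a Control mean of 12.2% of the ganglion, with -1.26, -3.36 and -0.90 on the +IFN arrays, against -3.14, -3.11 and -2.87 on the Control arrays. Both had their lowest value on +IFN array 2. Cenpf, a kinetochore protein made in G2 phase, had -0.45, -1.93 and 0.08 on the +IFN arrays, against -1.44, -1.94 and -1.89 on the Control arrays. Cenpa, the histone H3 variant of centromeres, had a difference of 0.63 log2 over its features and 1.13 at the curated one, with -0.46, -1.91 and -0.30 on the +IFN arrays, against -1.46, -1.74 and -1.34 on the Control arrays. For these 4 genes +IFN arrays 1 and 3 were above every Control array. Without +IFN array 2 the folds were 3.26 for Nusap1 (adjusted p = 0.00505), 3.89 for Cenpe (0.00467), 2.96 for Cenpf (0.0297) and 2.20 for Cenpa (0.0291).

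Top2a untangles and compacts chromosomes, and Mki67, the Ki-67 antigen used to count cycling cells, coats them in mitosis. Top2a had 0.06, -1.82 and 0.16 on the +IFN arrays, against -1.41, -2.24 and -1.77 on the Control arrays. Mki67 had -0.74, -2.83 and -0.80 on the +IFN arrays, against -2.79, -2.77 and -2.37 on the Control arrays. On +IFN arrays 1 and 3 Top2a was at the level of the ganglion, whereas on +IFN array 2 both genes were at the Control level. The differences were 1.27 ± 0.55 log2 for Top2a (SE; 95% interval -0.05 to 2.59; adjusted p = 0.635) and 1.19 ± 0.56 for Mki67 (SE; 95% interval -0.16 to 2.54; adjusted p = 0.664). Without +IFN array 2 they were 3.76-fold (adjusted p = 0.0194) and 3.67-fold (adjusted p = 0.00587).

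**Figure D3:**
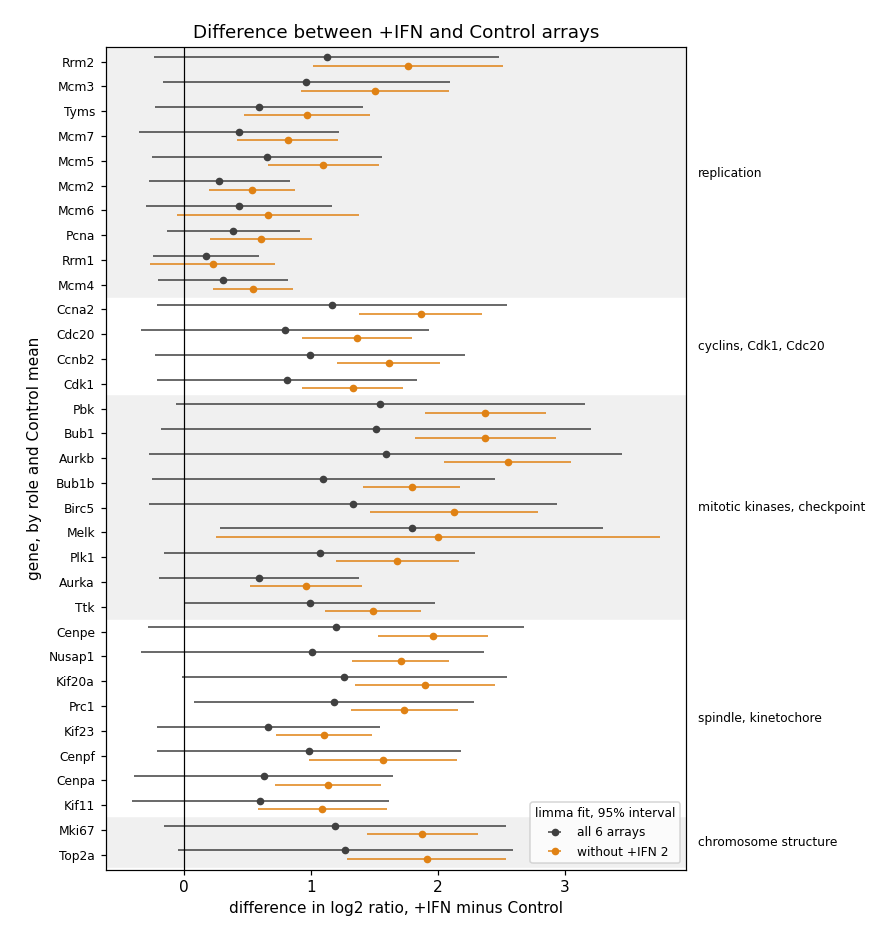
For each of the 33 cell cycle genes (down the page, by role) the +IFN minus Control difference in log2 is drawn with its 95% interval over all arrays and without +IFN array 2. Over all 6 arrays the adjusted p passed 0.05 for 0 of 33 genes, and without +IFN array 2 for 23.

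The order of the genes was also kept on 1 +IFN array and flattened on the others. Across the 33 genes, which share 1 reference RNA, the ratios on +IFN array 2 followed the Control mean with Pearson's r of 0.92, Spearman's rho of 0.92 and a slope of 1.01. On +IFN array 1 the values were 0.59, 0.58 and a slope of 0.31, and on +IFN array 3 they were 0.51, 0.50 and a slope of 0.24. Genes are not independent replicates, and these are descriptions. The SD over the genes was 0.37, 0.79 and 0.34 on +IFN arrays 1, 2 and 3, against 0.76, 0.83 and 0.67 on the Control arrays.

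Some of the levels depend on which feature was read. Of the 33 genes, 11 had both a feature annotated to a curated RefSeq transcript and a feature of another cDNA, and in 9 of these the other feature gave a Control mean nearer to 0. For Cenpa the Control means were -2.85 at the curated and -0.17 at the other feature. For Kif23 they were -2.60 and -0.27, and for Mcm4 -1.26 and 0.16. Averaging thus drew such genes towards 0, and with curated features alone the median Control level over the genes was -2.18.

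Other genes that were low in the cultures followed the same arrays only in part. Genes were placed in classes by their mean ratio over the 6 arrays. Of those below -2, the 7 cell cycle genes had medians of -0.88, -3.31 and -0.90 on +IFN arrays 1, 2 and 3, against -3.04, -3.13 and -2.81 on the Control arrays, and the 42 genes on no cell cycle list had -2.15, -2.94 and -1.97, against -2.56, -2.85 and -2.44. Of those between -2 and -1, the 20 cell cycle genes had -0.45, -2.01 and -0.50, against -1.85, -2.17 and -1.80, and the 469 genes on no cell cycle list had -0.80, -1.73 and -1.04, against -1.29, -1.57 and -1.28. In both classes +IFN array 2 was the lowest +IFN array for other genes too, and the cell cycle genes spanned the wider range. At the other end, +IFN array 2 was the highest. The 362 other genes with a mean of 1 and above had medians of 1.47, 1.99 and 1.70 on +IFN arrays 1, 2 and 3, against 0.81, 1.08 and 1.175 on the Control arrays. The class mean includes the +IFN arrays, so genes higher in +IFN could enter this class, whose median difference was 0.36. These medians carry no test. The SD over all genes was 0.57, 0.75 and 0.61 on +IFN arrays 1, 2 and 3, against 0.55, 0.60 and 0.60 on the Control arrays. Over all genes, 2.28%, 7.65% and 2.93% were below -1 on +IFN arrays 1, 2 and 3, against 4.57%, 5.77% and 4.57% on the Control arrays.

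**Figure D4:**
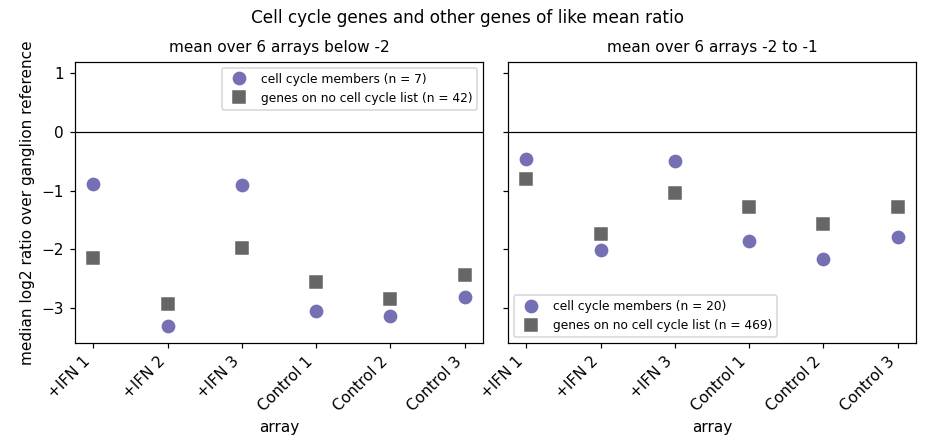
Points give the median log2 ratio over the ganglion reference (vertical axis) on each of the 6 arrays (horizontal axis) for cell cycle genes and for genes on no cell cycle list, in 2 classes of the mean over all arrays. Below -2, the cell cycle medians are -0.88 and -0.90 on +IFN arrays 1 and 3 where the other genes have -2.15 and -1.97.

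The rest of the cell cycle machinery was read from 5 further lists, with 134 of 139 genes measured. In limma's fit over all 6 arrays 1 of the 134 was higher in +IFN at an adjusted p under 0.05, against 1.12% of all genes, and 0 were lower. At an unadjusted p under 0.05, 14 were higher, against 5.27% of all genes, and 2 were lower, against 512 of all 19087 genes. The fit without +IFN array 2 called 48 higher, against 2.51% of all genes. The exception over all arrays was Shcbp1, which acts in the midbody at cytokinesis and had -0.32, -0.12 and 0.28 on the +IFN arrays, against -1.47, -1.42 and -1.92 on the Control arrays. It was high on all 3 +IFN arrays, with a difference of 1.55 ± 0.21 log2 (SE; 95% interval 1.04 to 2.06; adjusted p = 0.0258). Over 15 alternatives the adjusted p of Shcbp1 lay between 0.0169 and 0.677, and 6 kept the call, among them the fit without +IFN array 2 (0.0336). It was lost in 9: without +IFN array 1, +IFN array 3 or any 1 of the Control arrays, with the replicate number as a block, under quantile normalization, with the trend and robust variance prior, and with curated features only, where its difference was 1.23.

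The 58 other mitosis genes had medians of -0.68, -1.99 and -0.56 on the +IFN arrays, against -1.78, -1.84 and -1.61 on the Control arrays, and 37 passed without +IFN array 2. Kif15, a kinesin that works beside Kif11, had the largest difference among them, with -0.38, -1.60 and -0.74 on the +IFN arrays, against -2.15, -2.98 and -2.37 on the Control arrays (1.59 ± 0.36 log2, SE; adjusted p = 0.193, and 0.0228 to 0.592 over 15 alternatives). Bub3, which loads the checkpoint proteins, had the lowest, -0.19 ± 0.17 (SE; adjusted p = 0.819). The 39 other replication genes had medians of -0.16, -1.0 and -0.35 on the +IFN arrays, against -1.07, -0.91 and -0.94 on the Control arrays, and 8 passed without +IFN array 2. Their differences ran between -0.06 for Rpa1, a single-strand binding protein, and 1.29 for Exo1, an exonuclease. Both lists thus showed the arrangement of the 33 genes, replication again over a smaller range.

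Among the 20 pocket protein, E2F, MuvB and FOXM1 regulators 0 passed over all arrays, with 3 higher and 1 lower at an unadjusted p under 0.05. Rbl1, or p107, had 0.21, -1.36 and 0.41 on the +IFN arrays, against -1.93, -1.74 and -1.65 on the Control arrays (1.53 ± 0.46 log2, SE; adjusted p = 0.397). Foxm1, an activator of G2 and M genes, had 0.02, -1.75 and -0.31 on the +IFN arrays, against -1.55, -1.82 and -1.36 on the Control arrays (0.90 ± 0.45 log2, SE; adjusted p = 0.682). E2f8, a repressive E2F, had -0.89, -3.04 and -1.32 on the +IFN arrays, against -3.01, -3.16 and -2.99 on the Control arrays (1.30 ± 0.53 log2, SE; adjusted p = 0.619). These 3 were the regulators that passed without +IFN array 2. E2f4, a factor of DREAM, had the lowest difference of the list at -0.28 ± 0.15 (SE; adjusted p = 0.695).

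The lists of G1 cyclins and kinases and of cyclin-dependent kinase inhibitors did not have this arrangement in their medians. The 9 G1 cyclins and kinases had medians of -0.37, -0.71 and -0.43 on the +IFN arrays, against -0.70, -0.68 and -0.42 on the Control arrays, and 0 passed with or without +IFN array 2, with 0 at an unadjusted p under 0.05 over all arrays. Their differences ran between -0.59 for Ccnd2, a D-type cyclin, and 0.63 for Ccne2, an E-type cyclin. The 8 cyclin-dependent kinase inhibitors had medians of -0.26, -0.25 and -0.01 on the +IFN arrays, against 0.03, -0.05 and -0.45 on the Control arrays. Of these, 0 passed in either fit, with 1, Cdkn1a, lower at an unadjusted p under 0.05 (-0.54 ± 0.21 log2, SE, limma adjusted p = 0.595). Their differences ran between -0.83 ± 0.38 (SE; adjusted p = 0.654) for Cdkn2a and 0.71 ± 0.45 (SE; adjusted p = 0.749) for Cdkn3, a phosphatase that acts on CDKs. Single genes could still have the arrangement. Cdkn3 had -0.38, -1.76 and -0.035 on the +IFN arrays, against -1.28, -1.81 and -1.22 on the Control arrays. Cdkn2a did not, with -0.15, -0.10 and 0.01 on the +IFN arrays, against 0.56, 0.06 and 1.62 on the Control arrays.

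The treatment itself showed on every +IFN array. All 9 interferon-gamma targets measured rose, with medians of 3.75, 3.91 and 3.89 on +IFN arrays 1, 2 and 3, against -0.25, -0.25 and 0.39 on the Control arrays. Single targets differed between the +IFN arrays. Cxcl10 had 2.10, -0.58 and 2.35 on +IFN arrays 1, 2 and 3, against -6.71, -6.97 and -5.26 on the Control arrays. Gbp2 was highest on +IFN array 2, with 3.59, 4.06 and 3.89 on the +IFN arrays. The neuron markers lay near the ganglion on every array, with medians over 12 genes of -0.05, -0.10 and -0.26 on the +IFN arrays, against -0.04, 0.13 and -0.44 on the Control arrays. As ratios they do not show how much of any cell type a culture held.

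Markers of satellite glia, Schwann cells and fibroblasts followed the arrays of the cell cycle genes in part, and those of vascular cells are given below. The 12 satellite glia and Schwann cell markers had medians of -0.20, -1.38 and -0.20 on the +IFN arrays, against -0.56, -1.05 and -0.84 on the Control arrays, and 0 of 12 passed in limma's fit, with 0 higher and 1 lower at an unadjusted p under 0.05. Of these, 8 lay above all Control arrays on +IFN array 1 and 6 on +IFN array 3, and 10 lay below all of them on +IFN array 2. Of all 19087 genes, 5979, 5502 and 4942 did so on these arrays. Fabp7, a fatty acid binding protein of glia, had -0.18, -2.26 and -1.06 on the +IFN arrays, against -1.64, -2.14 and -1.64 on the Control arrays. Kcnj10, the potassium channel of satellite glia, had -0.16, -2.89 and -0.96 on the +IFN arrays, against -1.92, -2.84 and -1.91 on the Control arrays. In both, +IFN arrays 1 and 3 were above all Control arrays and +IFN array 2 below them. Other genes of the list differed: S100b, a calcium-binding protein of glia, had -0.23, -0.58 and -0.22 on the +IFN arrays, against 0.68, -0.07 and 1.59 on the Control arrays. Cdh19, a cadherin of Schwann cell precursors, had -0.07, 1.2 and 0.50 on the +IFN arrays, against 0.55, 1.15 and 0.89 on the Control arrays, and was highest on +IFN array 2. The 11 fibroblast markers had medians of 0.35, -1.37 and -0.06 on the +IFN arrays, against -0.01, -0.80 and -0.05 on the Control arrays, lowest on +IFN array 2 as well. Of the 11, 5 lay above all Control arrays on +IFN array 1 and 3 on +IFN array 3, and 8 lay below all of them on +IFN array 2. Their median change on +IFN array 3 was -0.02. Among the Control arrays, the glial and fibroblast medians were both lowest on Control array 2, at -1.05 and -0.80.

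The remaining marker lists are given for comparison, with no test of a difference between lists. Medians were -0.56, -0.84 and -0.65 on the +IFN arrays, against -0.51, -0.73 and -0.41 on the Control arrays, for 11 endothelial markers. They were -0.41, -0.69 and -0.13 on the +IFN arrays, against -0.26, -0.41 and -0.02 on the Control arrays, for 7 mural cell markers. Relative to the Control mean, neither list had a higher median on +IFN arrays 1 and 3. The median changes there were -0.01 and -0.08 for endothelial markers and -0.19 and -0.36 for mural cell markers. The 7 lymphocyte markers had -0.05, 0.23 and 0.18 on the +IFN arrays, against 0.20, 0.15 and 0.11 on the Control arrays. The 11 macrophage markers had 0.36, -0.18 and 0.42 on the +IFN arrays, against -0.37, -0.30 and -0.19 on the Control arrays, and 2 of them, the complement genes C1qa and C1qc, rose, though both calls were lost when any 1 array other than +IFN array 2 was left out, and that of C1qa also with the replicate number as a block. The part of any of these cell types in the cell cycle result was not tested.

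**Figure D5:**
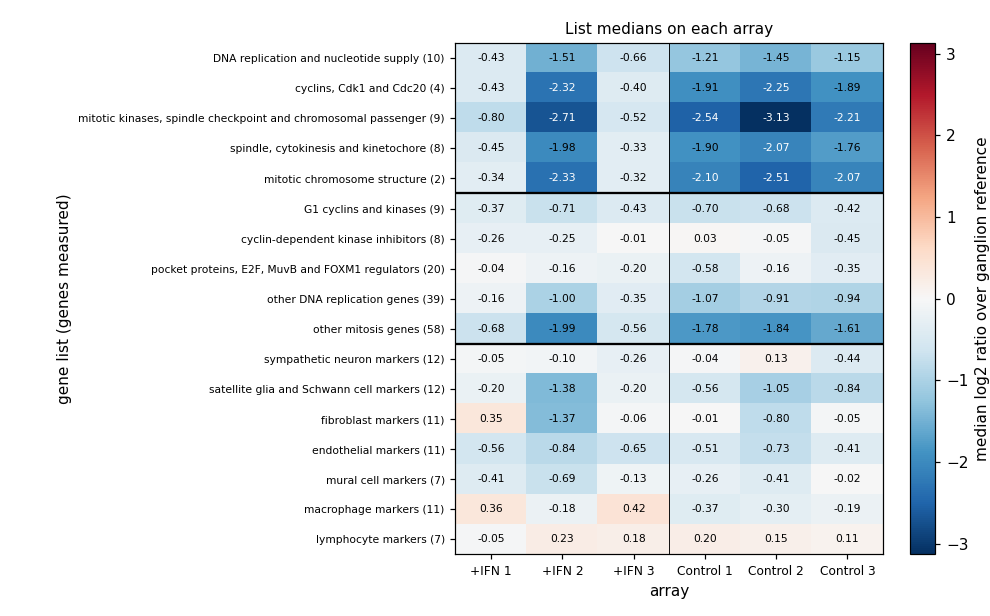
Each cell gives the median log2 ratio over the ganglion reference (colour, blue below 0 and red above it) of a gene list (vertical axis, with the number of genes measured) on each of the 6 arrays (horizontal axis). On +IFN array 2 the satellite glia and Schwann cell median is -1.38 and the fibroblast median -1.37, the lowest of the 6 arrays for both lists, while the neuron median is -0.10. Among the Control arrays both lists are lowest on Control array 2, at -1.05 and -0.80.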

How the data were processed

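Neuron RNA on 3 +IFN and 3 Control arrays was measured against a ganglion reference. Per the labels' protocols, total RNA was extracted with Trizol and amplified by Low Input Quick Amp labelling, with Cy5 for neuron RNA and Cy3 for reference RNA. Per the submitters' processing notes, Agilent Feature Extraction was used (version: not given in the sources used here). The values are log2 ratios as deposited by the authors. The log2 scale and the direction, neuron over reference, were inferred, and background correction and within-array normalization stand in none of the sources used here. Spot signals were not analysed here.

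Of 45220 features, 33653 had 1 gene in the platform annotation, 56 had several and 11511 none. Symbols were updated through RefSeq gene numbers (GRCm38.p6) for 33517 features, and features were averaged to 19087 genes. No filter on dim features was set, and 309 to 715 features per array were exactly 0. Groups were compared with lmFit and eBayes of limma 3.58.1 in R 4.3.3, two-sided, adjusting p over the 19087 genes by Benjamini-Hochberg with 0.05 as the threshold, and the code was tested on simulated data. A member's change on 1 array is that array minus the mean of the 3 Control arrays. The alternatives were quantile and scale normalization, the median of features, zeros as missing, array weights, another variance prior, a filter, a replicate block, leaving out each array and, chosen after seeing the data, curated features only. All 34 members may be named. The genes of the other lists are named where they passed the threshold or had the lowest or highest difference in the fit or in a discussed alternative. Fabp7, Kcnj10, S100b, Cdh19, Cdkn1a, Cxcl10 and Gbp2 were chosen after their values were seen. The members and lists were chosen with earlier results of these data known.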

Additional observations from a re-analysis of the deposited data

How the results depend on the processing

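The differences of the members kept their direction in all 15 other settings, with 471 values on the same side of the threshold and 23 newly past it, all without +IFN array 2. The count of members that passed was 0 with all arrays and between 0 and 23 when 1 array was left out. The median member difference of 0.99 lay between 0.66 and 1.56 when 1 array was left out and was 1.38 with array weights, which were 1.04, 0.54 and 2.06 for +IFN arrays 1, 2 and 3. All genes past the threshold numbered 217, and between 113 and 508 when 1 array was left out: 134 without +IFN array 1, 508 without +IFN array 2, 113 without +IFN array 3, 136 without Control array 1 and 133 without Control array 2. The other cell cycle genes past it numbered 1, then 0 with the trend and robust variance prior, 0 with curated features only, and between 0 and 48 when 1 array was left out. Under quantile normalization and with the block it stayed at 1, but the gene was Kif15 in place of Shcbp1. Quantile normalization gave median member changes of 1.19, 0.11 and 1.28 on +IFN arrays 1, 2 and 3, against 1.52, -0.19 and 1.62 as deposited, so the sign on +IFN array 2 reversed; the cause was not tested. Rpa1, at -0.06, lay between -0.18 and 0.058 when 1 array was left out, turning sign without +IFN array 2 and without Control array 3. Curated features gave a median Control level of -2.18 in place of -1.97. With replicate number as a block, 166 genes and 0 members passed and the median member difference was 0.99. Same-numbered arrays of the 2 groups had deviations correlated at 0.06, 0.31 and -0.03 for numbers 1, 2 and 3. The value for number 2 was the highest of all pairs, but not every array correlated best with its own number. With 3 arrays a group these correlations cannot show whether same-numbered arrays share a culture or preparation, and the labels do not say. Leaving out a +IFN array leaves 2 against 3 arrays. With 3 arrays a group, +IFN array 2 decides whether any member passes, and signal over background was not analysed here.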
